A study of Drosophila melanogaster with 72 samples.

Results

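The genes described here encode antimicrobial peptides of Drosophila melanogaster, small secreted proteins of the innate immune defence. They are the 10 genes AttA, AttB, AttC, AttD, CecA1, CecC, Drs, Mtk, DptB and Dro, chosen by name, and all 10 had a row among the 13898 genes of the deposited tables. Their transcripts were followed in whole-brain RNA of 72 libraries, which form 24 groups of 3 replicates. Each library was made from 15 pooled brains, and the labels used here give neither sex nor age.

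The groups cover 3 kinds of experiment. In 5 lines a GAL4 driver, a yeast transcription factor expressed under a chosen enhancer, was combined with UAS-TrpA1, a heat-activated cation channel. R21H11, R65H02, HC (hot cell) and R60F09 are labelled as wake-promoting, and their warm groups were moved to 29 °C for 3 h and dissected at zeitgeber time (ZT, hours after lights on) 0. R85C10 is called sleep-promoting in the protocol, although its titles speak of sleep deprivation, and its warm groups spent 12 h of the day at 29 °C and were dissected at ZT12. Each line has flies with GAL4 and TrpA1 at 29 °C (TrpA1 29C), flies with GAL4 but no TrpA1 at 29 °C (GAL4 control 29C) and flies with GAL4 and TrpA1 kept at 21 °C (TrpA1 21C). In the strain iso31, 3 groups were shaken on a vortexer, with vibrations of 2 s every 20 s, for 3, 6 or 12 h and dissected at ZT0. Undisturbed iso31 flies at 25 °C were dissected at ZT0, 4, 8, 12, 16 and 20. The drivers are described as acting in neurons, and which neurons each marks is not given in the sources used here. The comparison of TrpA1 29C with TrpA1 21C changes temperature and channel activity at once, and their parts in it cannot be told apart. The same holds for temperature and the TrpA1 transgene in GAL4 control 29C against TrpA1 21C. All 3 shaken groups were compared with the same undisturbed ZT0 brains. Those brains are labelled as circadian profiling and the shaken ones as mechanical sleep deprivation, with no temperature given for the latter. Shaking and any other difference between these 2 experiments cannot be told apart.

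Antimicrobial peptides are made mainly by the fat body, the insect counterpart of liver and adipose tissue, by barrier epithelia and by blood cells, and in the brain region some are also known from glia and from the fat body of the head. Their genes are switched on by NF-kappaB factors at the end of the Toll and Imd pathways. Toll, through Dif and dl, is best known for driving Drs after fungal and many Gram-positive infections, whereas Imd, through Rel, is best known for driving the diptericins, attacins, cecropins and drosocin when peptidoglycan is sensed. The peptides act mostly by damaging the membranes of microbes, and their transcripts are usually scarce in uninfected flies.

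The libraries held 4175587 to 13435817 estimated counts (median 8437310), so 3 counts, taken here as the floor of detection, correspond to 0.223 to 0.718 counts per 1000000 (CPM). Such floors and the intervals below cover counting error only. Markers of neurons and glia were present in every library, elav for example at 266 to 843 CPM. The 13 mitochondrial protein genes took 1.68% to 9.17% of counts. The TrpA1 transcript followed the labels in R65H02, at 68.4 ± 4.83 CPM in TrpA1 29C, 68.0 ± 5.11 CPM in TrpA1 21C and 14.1 ± 0.665 CPM in GAL4 control 29C (SD, n = 3 each). In HC it was at 26.6 ± 2.06 CPM in TrpA1 29C but only 13.8 ± 1.95 CPM in the group labelled TrpA1 21C, against 11.4 ± 2.14 CPM in GAL4 control 29C (SD, n = 3 each). The w transcript, an eye-colour marker of transgenes, gave 17.2 ± 1.76 CPM in HC TrpA1 29C and 18.5 ± 2.60 CPM in HC TrpA1 21C, against 3.68 ± 0.909 CPM in HC GAL4 control 29C (SD, n = 3 each). The p-values of the tests between groups rest on the spread between the 3 pooled libraries within groups. In edgeR it is estimated over all groups of a fit and drawn in part from other genes. In bulk RNA, fewer cells of a type and less RNA per cell cannot be told apart.

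The 10 genes fell into a constant and a sporadic class. Drs, which encodes the antifungal peptide Drosomycin, had a count in all 72 libraries, from 5 to 76 with a median of 28. In transcripts per 1000000 (TPM), which corrects for transcript length, Drs ran from 5.69 to 81.2 with a median of 34.6. AttA, an attacin active against Gram-negative bacteria, followed with a count in 70 libraries and a median of 2.22 TPM.

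The other 8 were near or below the floor in most libraries. AttC and AttB, further secreted attacins, had no count in 16 and 17 libraries. The membrane-lytic cecropin CecC had none in 26 libraries. The proline-rich peptide Drosocin (Dro) had none in 33, and the antifungal Metchnikowin (Mtk) had none in 34. The glycine-rich diptericin DptB and the cecropin CecA1 had none in 49 libraries each, and AttD, an attacin that lacks a signal peptide, had none in 51. AttD reached 10 counts at most and CecA1 12.

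**Figure D1:**
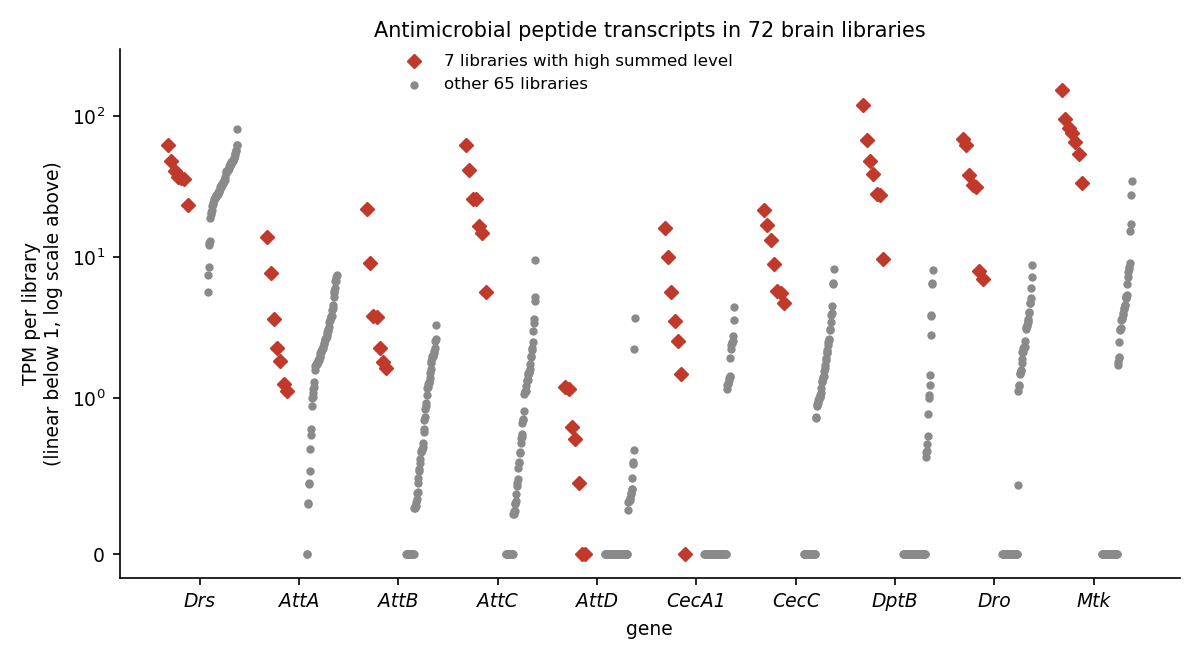
TPM of each gene in every library (y axis, linear below 1 and logarithmic above), sorted within each gene. Red diamonds are the 7 libraries with the highest summed level of the 9 genes other than Drs and grey points the other 65. The diamonds lie mostly high for AttC, DptB, Dro and Mtk, which enter that sum. For Drs they reach 62.2 TPM, below the highest grey point of 81.2 TPM.

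A few libraries carried most of the sporadic transcripts. The 9 genes other than Drs were summed per library in CPM, and 7 libraries exceeded 4 times the median of all 72. They were undisturbed ZT12 replicate 3 (28.5 times the median), mechanical 12h replicate 3 (26.1 times), R65H02 TrpA1 29C replicate 3 (15.4 times), undisturbed ZT8 replicate 2 (15.0 times), undisturbed ZT16 replicate 1 (9.23 times), mechanical 3h replicate 3 (8.49 times) and undisturbed ZT16 replicate 2 (6.34 times). The next library, undisturbed ZT8 replicate 3, was at 3.56 times and was left with the rest. This choice was made after the values were seen and rests on them, so what follows in this paragraph is a description without a test. The 7 libraries held 88.2% of all DptB counts, 72.3% of Dro, 71.7% of AttC and 70.4% of Mtk. Their share was 52.9% for CecA1, 46.5% for CecC and 46.2% for AttB. It was 26.8% for AttD, 16.9% for AttA and 11.5% for Drs.

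The 7 libraries were picked for the sum of these genes, so high counts in them follow from that choice. The counts are given as a description without a test. AttC had 18 to 222 counts there with a median of 89, against a median of 2 and at most 32 in the other 65 libraries. DptB had 11 to 119 counts, against at most 10 in the others, and Mtk 12 to 60, against at most 17. Dro had 5 to 52, against at most 7, so AttC, Mtk and Dro each overlapped with the other libraries. Undisturbed ZT12 replicate 3 had 222 counts of AttC, 83 of DptB, 66 of AttB, 52 of Dro and 40 of Mtk. Mechanical 12h replicate 3 had 120 of AttC, 119 of DptB, 60 of Mtk and 45 of Dro, but only 3 of AttA and 10 of AttB. R65H02 TrpA1 29C replicate 3 had 97 of AttC, 44 of AttA, 37 of DptB and 32 of Mtk, with 7 of Dro. Drs, which was not part of the sum, had 23.7 to 62.2 TPM in the 7 libraries and up to 81.2 TPM in the others.

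All 7 listed fat body markers were found in the series, Fbp2 in only 3 libraries. Their summed level was 714 to 2032 CPM in the 7 libraries, with a median of 1352 CPM, and 184 to 3311 CPM in the other 65, with a median of 575 CPM. Among iso31 brains alone it was 1021 to 2032 CPM in 6 such libraries and 271 to 3311 CPM in the other 21, with medians of 1463 and 481 CPM. The sum of 6 hemocyte markers had medians of 390 CPM in the 7 libraries and 383 CPM in the others. The ranges overlap for both cell types, and the part of these cells in the members' levels was not tested.

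Across all 24 groups, 8 of the 10 genes passed the filter on low counts and all 8 differed in edgeR's quasi-likelihood test with Benjamini-Hochberg adjustment, the test used throughout at a threshold of 0.05. That comparison called 88.4% of all tested genes, so the members' share is near the background. AttD and CecA1 did not pass the filter. Adjusted p was lowest for Mtk (2.33e-05) and AttC (2.57e-05) and highest for AttB (0.0304). The call of DptB was lost under DESeq2 (adjusted p 0.269) and without all libraries of replicate number 2 (edgeR adjusted p 0.0959). That of AttB was lost with limma on log2 TPM (adjusted p 0.392) and with blocking on the replicate number (edgeR adjusted p 0.0656). That of CecC was lost without replicate number 2 (edgeR adjusted p 0.0812). Without the 7 libraries 5 members passed the filter, namely AttA, AttC, Drs, Mtk and DptB, and all 5 were called, while AttB, CecC and Dro were no longer tested. The share of all genes called in that fit is not given here. The libraries left out were chosen on the members' own values. When the groups were ranked by mean CPM, the ranges of all 23 neighbouring pairs overlapped for every member.

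Drs was higher in the warm groups of several lines, with and without TrpA1. In HC, Drs had 34.9, 43.0 and 35.3 TPM in TrpA1 29C and 33.8, 44.8 and 35.4 TPM in GAL4 control 29C, against 23.1, 5.69 and 7.43 TPM in TrpA1 21C. In R60F09 it had 41.5, 44.4 and 57.4 TPM in TrpA1 29C and 33.4, 46.0 and 48.0 TPM in GAL4 control 29C, against 8.57, 12.2 and 21.7 TPM in TrpA1 21C. In R65H02 it had 48.5, 48.9 and 62.2 TPM in TrpA1 29C and 62.6, 53.0 and 45.2 TPM in GAL4 control 29C, against 25.8, 24.1 and 27.4 TPM in TrpA1 21C. In these 3 lines both warm groups lay above the cold group without overlap.

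R21H11 and R85C10 were less clear. In R21H11, Drs had 28.3, 31.7 and 41.0 TPM in TrpA1 29C and 47.7, 56.5 and 33.2 TPM in GAL4 control 29C, against 31.4, 12.9 and 12.5 TPM in TrpA1 21C. In R85C10 it had 24.1, 55.0 and 63.1 TPM in TrpA1 29C and 40.8, 41.7 and 50.8 TPM in GAL4 control 29C, against 27.9, 39.4 and 28.9 TPM in TrpA1 21C. In both lines TrpA1 29C overlapped with TrpA1 21C. GAL4 control 29C lay above TrpA1 21C in TPM but overlapped with it in CPM, at 2.96 to 5.16 against 1.38 to 3.39 CPM in R21H11 and 3.34 to 4.48 against 2.36 to 3.57 CPM in R85C10.

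**Figure D2:**
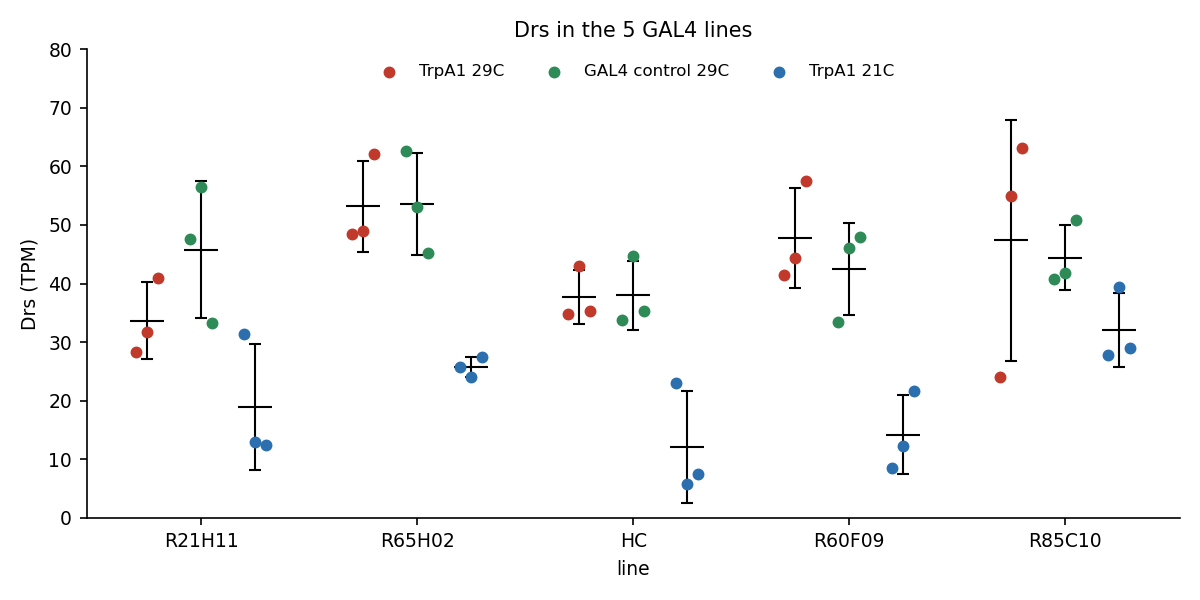
Drs in TPM (y axis) for each line (x axis), with TrpA1 29C in red, GAL4 control 29C in green and TrpA1 21C in blue. Points are libraries, and bars give the mean and SD of 3; the warm groups average 33.7 to 53.6 TPM and the cold groups 12.1 to 32.1 TPM.

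The tests of TrpA1 29C against TrpA1 21C called Drs in 3 of 5 lines. In R60F09 the log2 difference was 1.29 (SE 0.318, edgeR adjusted p 0.00603), where Drs was the 1 member called of 2 tested against 44.7% of all genes. In R65H02 it was 1.10 (SE 0.250, edgeR adjusted p 0.00520), where Drs was 1 of 2 members called of 3 tested against 30.3% of all genes. In HC it was 1.27 (SE 0.426, edgeR adjusted p 0.0366), where Drs was the 1 member tested and 33.5% of all genes were called. In R21H11 the difference was 0.96 (SE 0.394, edgeR adjusted p 0.158), so that 0 of 1 member was called against 3.03% of all genes, although its unadjusted p was under 0.05. In R85C10, where the unadjusted p was above 0.05, it was 0.56 (SE 0.329, edgeR adjusted p 0.245), again 0 of 1 member, against 18.7% of all genes. DESeq2 also called no member in R21H11 or R85C10.

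Flies without the channel were also set against the cold group, in comparisons that share the TrpA1 21C libraries with those above and were added after the data were seen. GAL4 control 29C against TrpA1 21C gave a log2 difference in Drs of 1.32 in HC (SE 0.437, edgeR adjusted p 0.0355), the 1 member tested, with 33.4% of all genes called. It gave 1.20 in R60F09 (SE 0.326, edgeR adjusted p 0.00895), 1 of 2 members, with 48.9% of all genes called. In R65H02 it gave 0.82 (SE 0.258, edgeR adjusted p 0.0184), 1 of 3 members, with 48.3% of all genes called. The value was 1.01 in R21H11 (SE 0.394, edgeR adjusted p 0.0898) and 0.46 in R85C10 (SE 0.333, edgeR adjusted p 0.432), which makes 0 of 1 member in each, with 16.5% and 9.02% of all genes called. Unadjusted p was under 0.05 in R21H11 and above it in R85C10, and DESeq2 called 0 members in those 2 lines.

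Between the 2 groups at 29 °C, Drs was not called in any line. The log2 difference of TrpA1 29C from GAL4 control 29C was -0.05 in R21H11 (SE 0.380), 0.28 in R65H02 (SE 0.243), -0.05 in HC (SE 0.395), 0.09 in R60F09 (SE 0.295) and 0.10 in R85C10 (SE 0.315), with edgeR adjusted p between 0.343 and 0.981. In HC that left 0 of 1 member against 0.989% of all genes, in R60F09 0 of 2 against 0.247%, in R85C10 0 of 1 against 1.44% and in R21H11 0 of 1 against 47.2%. No member of these 4 lines had an unadjusted p under 0.05 there, and DESeq2 called none of them. The difference in Drs was not shown to vary among the 4 wake-promoting lines, with edgeR adjusted p of 0.911 against GAL4 control 29C and 0.927 against TrpA1 21C.

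The size and firmness of the Drs differences depended on the handling of transcript length and on single libraries. With each library's trend of expression on length removed, TrpA1 29C against TrpA1 21C gave 2.32 in R60F09 (edgeR adjusted p 0.00056) and 1.88 in HC (edgeR adjusted p 0.00498). In HC, leaving out 1 library at a time kept the call in 1 of 9 cases, that without TrpA1 21C replicate 1 (log2 2.21), with edgeR adjusted p from 0.00208 to 0.106. The HC call of GAL4 control 29C against TrpA1 21C was also kept in 1 of 9 cases (edgeR adjusted p 0.00211 to 0.108). In R65H02 that comparison lost its call without GAL4 control 29C replicate 1 (edgeR adjusted p 0.080) or TrpA1 21C replicate 2 (0.0511), and in R21H11 it gained one without TrpA1 21C replicate 1 (log2 1.55, edgeR adjusted p 0.0383) and with the length offset (log2 1.69, edgeR adjusted p 0.0253). Between the warm groups the length offset gave -1.10 in R21H11 and -0.57 in R65H02, the second of opposite sign, and neither was called (edgeR adjusted p 0.0964 and 0.0703). The mitochondrial share of counts was 1.98% ± 0.310 in HC TrpA1 29C and 2.44% ± 0.199 in HC GAL4 control 29C, against 4.06% ± 0.795 in HC TrpA1 21C (SD, n = 3 each). In R60F09 it was 1.84% ± 0.161 in TrpA1 29C and 2.16% ± 0.250 in GAL4 control 29C, against 6.05% ± 2.75 in TrpA1 21C (SD, n = 3 each). In R65H02 it was 4.99% ± 0.573 in TrpA1 29C and 2.21% ± 0.0739 in GAL4 control 29C, against 3.39% ± 0.847 in TrpA1 21C, and in R21H11 4.50% ± 1.77 in TrpA1 29C and 2.08% ± 0.129 in GAL4 control 29C, against 4.30% ± 1.29 in TrpA1 21C (SD, n = 3 each). In R85C10 it was 2.43% ± 0.148 in TrpA1 29C and 2.18% ± 0.446 in GAL4 control 29C, against 3.02% ± 0.391 in TrpA1 21C (SD, n = 3 each). The share was thus lower in both warm groups than in the cold one in HC, R60F09 and R85C10, but not in R65H02 and R21H11. Its part in the Drs differences was not tested.

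AttC was the 1 member called against both controls of a line, in R65H02. It had 16, 13 and 97 counts in TrpA1 29C, against 0, 0 and 0 in GAL4 control 29C and 0, 2 and 2 in TrpA1 21C. All 3 TrpA1 29C libraries lay above all 6 controls. AttC passed the filter on low counts in this line through TrpA1 29C alone, the group in which it was high, so that its place among the tested members already rested on that difference. Against GAL4 control 29C the mean of 4.79 CPM was at least 11.2-fold higher than a floor of 3 counts per library (edgeR adjusted p 0.0191), and at least 3.33-fold higher without replicate 3, the library that stood apart. Against TrpA1 21C the log2 difference was 4.83 (SE 1.39, edgeR adjusted p 0.0440), or 3.12 (SE 0.871, edgeR adjusted p 0.0345) without that library. Of all genes in R65H02, 17.5% were called against both controls in the same direction. The call against GAL4 control 29C was lost without TrpA1 21C replicate 3, which entered the same fit (edgeR adjusted p 0.0529). The call against TrpA1 21C was lost when any 1 of the TrpA1 21C libraries was left out (edgeR adjusted p 0.133 to 0.149), with the length offset (0.0515) and without the low-count filter (0.0854).

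AttA, the close relative of AttB, was the other member called in R65H02 TrpA1 29C against GAL4 control 29C. It had 2.34, 1.98 and 5.22 CPM in TrpA1 29C, against 1.27, 1.59 and 1.07 CPM in GAL4 control 29C, with no overlap. The log2 difference was 1.21 (SE 0.435, edgeR adjusted p 0.0307), and with AttC this made 2 of 3 members tested, against 53.8% of all genes. Without replicate 3 it was 0.66 and not called (edgeR adjusted p 0.209). In TrpA1 21C AttA had 2.59, 1.76 and 2.68 CPM, so TrpA1 29C did not stand apart from it (log2 0.42, SE 0.398, edgeR adjusted p 0.459). The call was also lost without GAL4 control 29C replicate 1 (0.0869) or 3 (0.0893). The 3 groups of R65H02 averaged 1.31 to 3.18 CPM of AttA, against 0.437 to 1.57 CPM in the 12 groups of the other lines, where R60F09 TrpA1 21C was the highest.

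DptB and Mtk were high in 1 library of R65H02 rather than across the group. DptB had 0, 1 and 37 counts in TrpA1 29C, against 0, 0 and 0 in both controls. Mtk had 2, 2 and 32 counts, against 2, 0 and 0 in GAL4 control 29C and 0, 2 and 0 in TrpA1 21C. The fat body marker sum in R65H02 TrpA1 29C was 1531, 1810 and 714 CPM in replicates 1, 2 and 3. It was 801, 386 and 410 CPM in GAL4 control 29C and 343, 1419 and 482 CPM in TrpA1 21C. The part of fat body in the AttC, DptB and Mtk counts of the TrpA1 29C libraries was not tested.

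**Figure D3:**
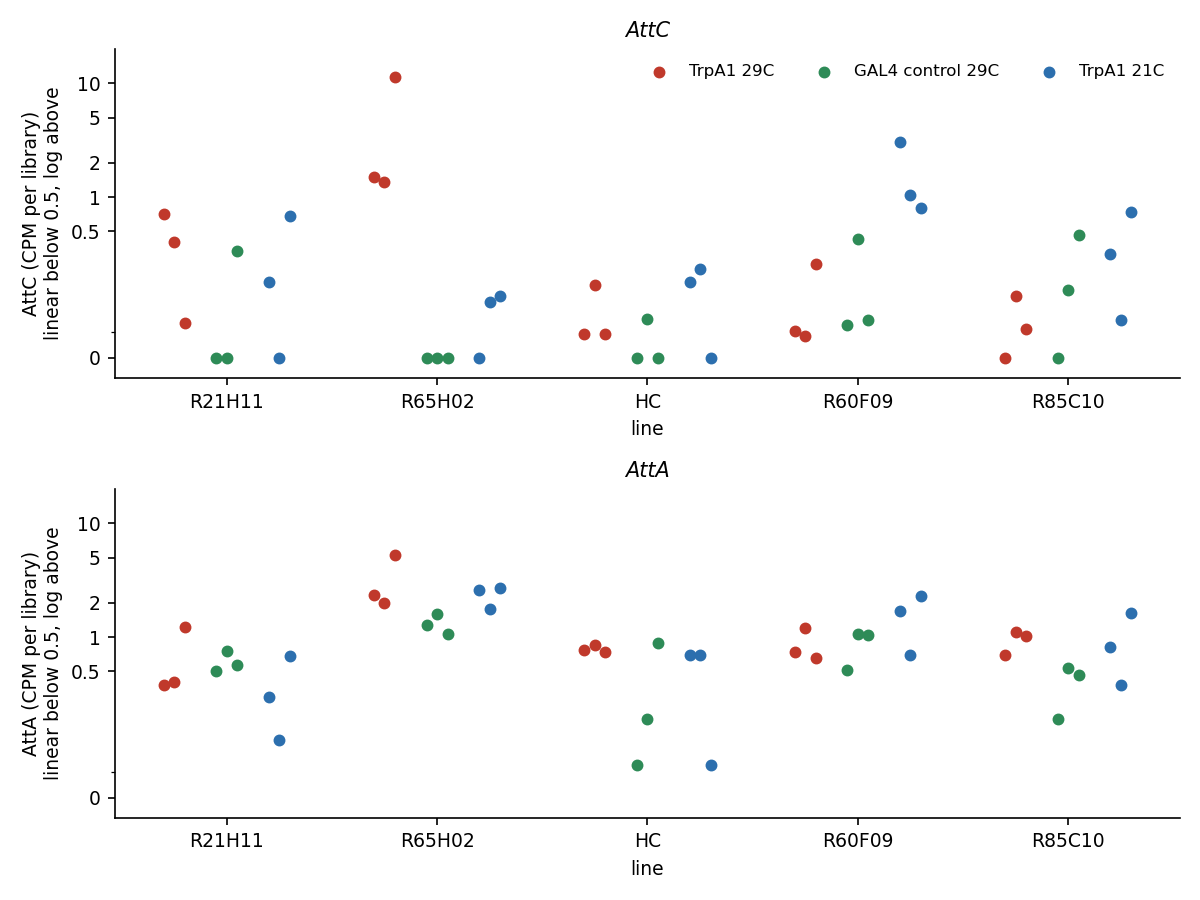
AttC (upper) and AttA (lower) in CPM per library (y axis, linear below 0.5 and logarithmic above) for each line (x axis), with TrpA1 29C in red, GAL4 control 29C in green and TrpA1 21C in blue. The R65H02 TrpA1 29C libraries reach 1.36 to 11.5 CPM of AttC while the 6 R65H02 controls stay at or below 0.244 CPM.

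The other lines did not share the AttC pattern of R65H02. In R60F09 the order was opposite, with 1, 1 and 4 counts of AttC in TrpA1 29C and 1, 4 and 1 in GAL4 control 29C, against 18, 9 and 8 in TrpA1 21C. AttC did not pass the count filter in that line, and without the filter it fell by 2.98 on the log2 scale in TrpA1 29C against TrpA1 21C (edgeR adjusted p 0.00700). The fat body marker sum there was 1284, 510 and 1140 CPM in TrpA1 29C, against 2294, 2621 and 987 CPM in TrpA1 21C, and its part was not tested. In R21H11 AttC had 8, 3 and 1 counts in TrpA1 29C, 0, 0 and 3 in GAL4 control 29C and 3, 0 and 6 in TrpA1 21C. HC stayed at 0 to 3 counts and R85C10 at 0 to 5 in every group.

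The difference of AttC among the 4 wake-promoting lines was itself tested, although AttC was looked at for its R65H02 values and passed the count filter through few libraries, mainly R65H02 TrpA1 29C and R60F09 TrpA1 21C. It passed for TrpA1 29C against GAL4 control 29C (edgeR adjusted p 0.0231) and for TrpA1 29C against TrpA1 21C (edgeR adjusted p 0.00104). In each comparison AttC was 1 of 3 members tested, AttA and Drs being the others, with 36.7% and 41.6% of all genes called. Without R65H02 TrpA1 29C replicate 3 the adjusted p was 0.0658 against GAL4 control 29C and 0.00639 against TrpA1 21C. Leaving out all libraries of replicate number 1 gave 0.0994 and 0.0607, and leaving out number 2 gave 0.252 against GAL4 control 29C. In the fit of all 72 libraries it was 0.206 against GAL4 control 29C.

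Sporadic members of R21H11 were low but present. Mtk had 5, 4 and 2 counts in TrpA1 29C, against 0, 0 and 0 in GAL4 control 29C and 1, 0 and 3 in TrpA1 21C. It did not pass the count filter in this line, and without the filter it was called against GAL4 control 29C (edgeR adjusted p 0.0329). DptB had 1, 8 and 4 counts in TrpA1 29C, against 0, 0 and 1 in GAL4 control 29C and 1, 0 and 2 in TrpA1 21C. The fat body marker sum was 1615, 1771 and 851 CPM in TrpA1 29C, against 237, 445 and 796 CPM in GAL4 control 29C and 1092, 278 and 708 CPM in TrpA1 21C, and its part was not tested.

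After mechanical sleep deprivation no difference from undisturbed ZT0 brains was shown for the 2 members that could be tested, Drs and AttC. Drs had 20.9, 27.9 and 41.2 TPM after 3 h, 45.6, 29.8 and 26.1 TPM after 6 h and 30.3, 36.9 and 23.7 TPM after 12 h, against 40.8, 27.8 and 32.5 TPM at undisturbed ZT0. Every shaken group overlapped with the undisturbed one. The log2 differences were 0.12 (SE 0.341), 0.37 (SE 0.343) and 0.11 (SE 0.344), with edgeR adjusted p of 0.829, 0.405 and 0.867. With the length offset they were -0.56, -0.64 and -0.58, again not called. The mitochondrial share of counts averaged 4.13%, 6.38% and 4.26% after 3, 6 and 12 h, against 2.62% at undisturbed ZT0. Its part was not tested.

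AttC differed between libraries of the same group more than between groups. It had 0, 1 and 39 counts after 3 h, 2, 32 and 3 after 6 h and 6, 0 and 120 after 12 h, against 4, 5 and 3 at undisturbed ZT0. AttC passed the filter on low counts through single high libraries of the shaken groups, so its place among the tested members rested on them. Without the libraries that stood apart it was no longer tested. The log2 differences of 2.39 (SE 2.18), 2.35 (SE 2.20) and 3.90 (SE 2.04) did not pass (edgeR adjusted p 0.483, 0.423 and 0.242). With errors of this size the tests could not exclude large changes. Without mechanical 3h replicate 3 the 3 h value was -2.41. So 0 of 2 members were called after 3 h, where 23.6% of all genes were, 0 of 2 after 6 h, where 46.1% were, and 0 of 2 after 12 h, where 16.3% were. Among the 3 durations 0 of 2 were called, against 15.8% of all genes. None of these had an unadjusted p under 0.05, and DESeq2 called none.

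DptB, Mtk and Dro did not pass the filter in the shaken brains, but each was high in 1 library of the 12 h group. DptB had 1, 0 and 119 counts after 12 h and 0, 0 and 26 after 3 h, against 0, 1 and 0 at undisturbed ZT0. Mtk had 2, 0 and 60 counts after 12 h, against 0, 1 and 1 at undisturbed ZT0. After 6 h, DptB had 0, 1 and 0 counts and Mtk 2, 2 and 2.

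**Figure D4:**
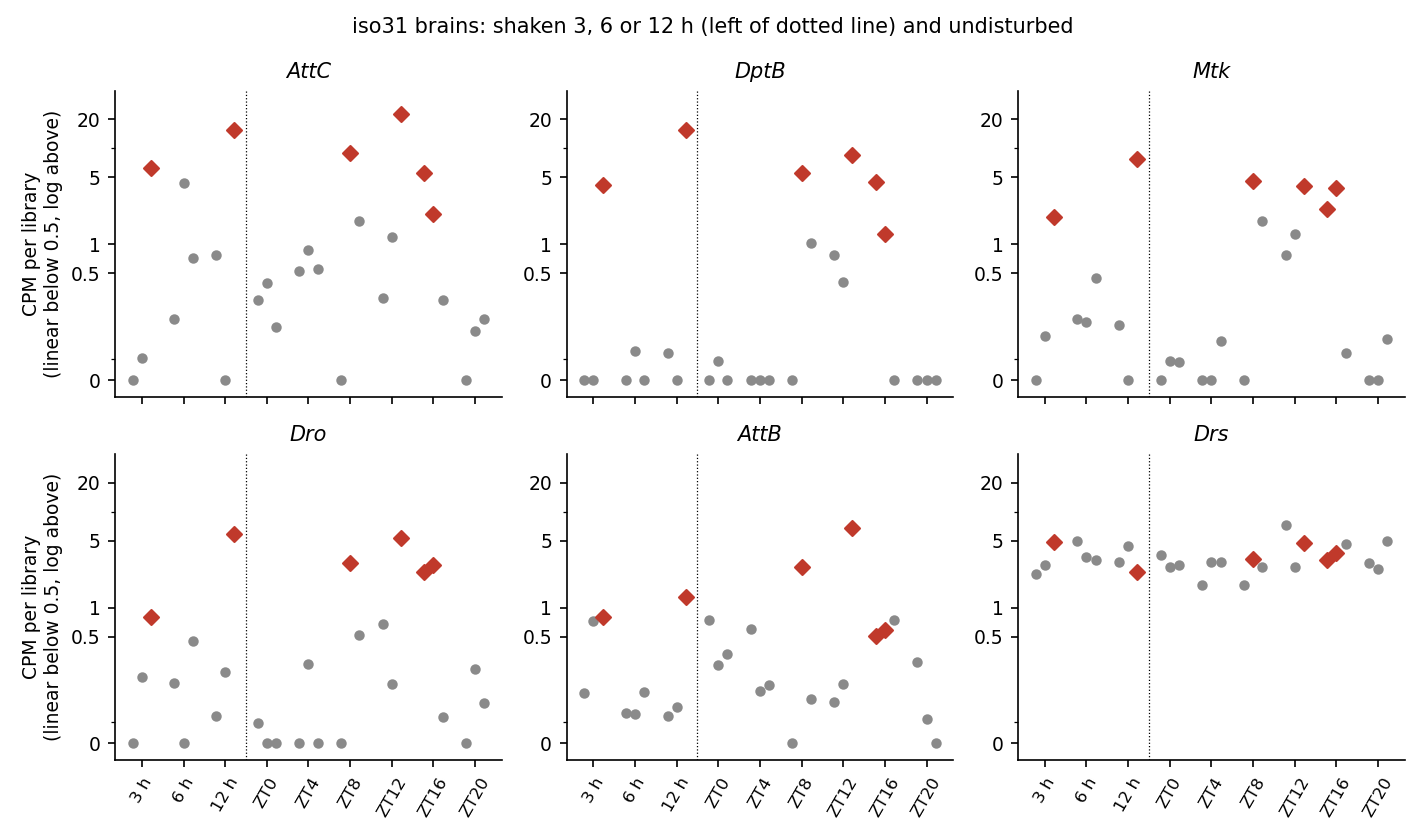
CPM per library (y axis, linear below 0.5 and logarithmic above) of 6 members in iso31 brains shaken for 3, 6 or 12 h (left of the dotted line) and undisturbed at 6 zeitgeber times. Red diamonds are libraries that stood apart, picked for the sum of the members other than Drs. AttC, DptB, Mtk and Dro are high in most of them, at ZT8, ZT12 and ZT16 and after 3 and 12 h of shaking. Dro after 3 h has 8.04 TPM there, against up to 8.79 TPM in other libraries of the series. AttC in ZT16 replicate 2, at 2.09 CPM, lies below the grey point of 4.36 CPM after 6 h. Drs stays between 1.70 and 7.33 CPM.

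Over the undisturbed day, Mtk was highest at ZT8 to ZT16, with libraries of the same time far apart. Mtk had 0, 1 and 1 counts at ZT0 and 0, 0 and 2 at ZT4. It had 0, 45 and 17 counts at ZT8, 8, 14 and 40 at ZT12 and 23, 33 and 1 at ZT16, then 0, 0 and 2 at ZT20. ZT12 was the time at which all 3 libraries lay above every library of ZT0, ZT4 and ZT20.

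Mtk was the 1 member called of 5 tested across zeitgeber times (edgeR adjusted p 0.0439), where 15.1% of all genes were called. AttC (0.159), Dro (0.128), DptB (0.192) and Drs (0.232) were not, and the 5 include members that passed the filter through their high libraries. AttC had 4, 5 and 3 counts at ZT0, 7, 7 and 6 at ZT4, 0, 89 and 17 at ZT8, 4, 13 and 222 at ZT12, 55, 18 and 3 at ZT16 and 0, 2 and 3 at ZT20. The Mtk call was lost without the libraries that stood apart (edgeR adjusted p 0.112), without ZT20 (0.488), with the length offset (0.0723), without the low-count filter (0.0777) and when each of 11 single libraries was left out (up to 0.12). A 24 h cosine left it at 0.0488. The fit of all 72 libraries called Mtk, AttC, CecC and Dro, 4 of 8 members tested there, and its share of all genes called is not given here. DESeq2 called AttC (adjusted p 0.0243) and gave no adjusted p for Mtk, Dro and DptB, and without the low-count filter edgeR called CecC (0.0496) in place of Mtk.

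Some of the members varied together within groups, most of all in the libraries that stood apart. Deviations of log2 CPM from the group mean were correlated over 72 libraries for the 45 pairs, with 100000 permutations of libraries within groups. Pearson's r passed an adjusted p of 0.05 in 19 pairs, and Spearman's rho also passed in 12 of them. In the 48 libraries left without replicate number 1, 2 or 3, r passed in 1, 4 and 0 pairs. Among AttC, CecC, Mtk, DptB and Dro, a subset chosen after its values were seen, r ran from 0.54 to 0.86 with a median of 0.72 and rho from 0.36 to 0.68. For Mtk and DptB r was 0.86 (permutation p 0.00027, adjusted 0.00174) and rho 0.60 (permutation p 0.00031, adjusted 0.00279). For AttC and DptB r was 0.85 (permutation p 8e-05, adjusted 0.00117) and rho 0.68 (permutation p 9e-05, adjusted 0.0018). Leaving out the 2 libraries farthest from the median of the first gene gave 0.40 to 0.78 for that subset.

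The 7 libraries were picked for high sums of these same members, so that correlations without them are lowered by that choice and are given as a description. In the 64 libraries that remained, with at least 2 in their group, 0 of 45 pairs passed the adjusted threshold and 7 had an unadjusted permutation p under 0.05. The subset had r of -0.00 to 0.46 there, with a median of 0.32. The 9 pairs with Drs had r of -0.07 to 0.35 over 72 libraries, with a median of 0.14, and 1 of them, that with CecC, passed (r 0.35, permutation p 0.0209, adjusted 0.0495; rho 0.30, permutation p 0.0377, adjusted 0.0997). Over the 64 libraries the pairs with Drs had a median r of 0.20 and reached 0.44. The 9 pairs with AttA had a median r of 0.21 over 72 libraries, and 1 of them, that with DptB, passed (r 0.30, permutation p 0.0150, adjusted 0.0396; rho 0.26, permutation p 0.0632, adjusted 0.150).

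**Figure D5:**
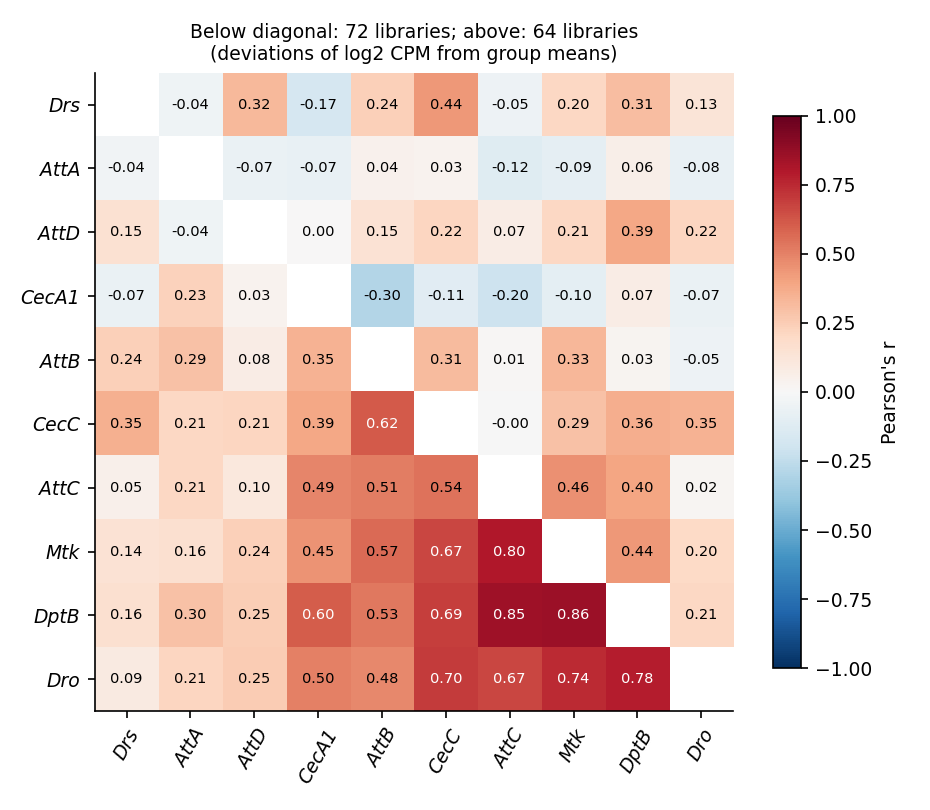
Pearson's r between members for deviations of log2 CPM from group means, over 72 libraries below the diagonal and over 64 libraries, without those that stood apart, above it. AttC, Mtk, DptB, Dro and CecC form a block of 0.54 to 0.86 below the diagonal, which is -0.00 to 0.46 above it.

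Outside the members, the genes whose within-group deviations were most like the members' mean were searched among 9630 genes over the 72 libraries. The first was DptA, the diptericin gene next to DptB in the annotation, with r of 0.88, rho of 0.65 and r of 0.33 without the libraries that stood apart. The second was PGRP-SB1, a secreted peptidoglycan recognition protein, with r of 0.75, rho of 0.58 and 0.40 without those libraries. Srg3, CG42807 and Gnmt followed at r of 0.52, 0.51 and 0.51. DptA had 3, 0 and 85 counts in mechanical 12h, 0, 0 and 66 at undisturbed ZT12 and 72, 8 and 0 at undisturbed ZT16, which are high in the same libraries as DptB.

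AttA and AttB lie next to each other in the annotation, beside Dro, and encode nearly identical peptides, so reads between them are split with uncertainty. AttB took 12.7% of their joint 205 counts in R65H02 (exact Clopper-Pearson 95% interval 8.45% to 18.03%), and AttA was the higher in 9 of 9 libraries. The share was 15.5% in HC, 18.7% in R60F09, 25.7% in R85C10 and 39.4% in R21H11. In iso31 it was 70.5% (62.9% to 77.3%) in the 6 libraries that stood apart and 39.9% (32.1% to 48.1%) in the other 21. These intervals pool libraries and hold counting error alone, so no test of the difference between strains was made. CecA1 and CecC likewise belong to a cluster of similar cecropin genes with CecA2 and CecB.

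Further effectors of the same defence, a list of 26 genes of which 25 were matched, were called in several comparisons. The list holds Bomanins and Daishos (short Toll-driven peptides), Baramicins, Turandots and others, and it was drawn up with earlier results of these data known. In R65H02 TrpA1 29C against GAL4 control 29C, 6 of 9 tested were higher and 0 lower, where 53.8% of all genes were called, with a median log2 difference of 2.64 against 0.05 for all genes. Scarce effectors can pass the count filter through the group in which they are high, so this count and median rest in part on the filter. The Bomanin BomS3 had 61, 31 and 57 counts in TrpA1 29C, against 5, 1 and 1 in GAL4 control 29C (log2 3.97, SE 0.693, edgeR adjusted p 0.000426). Against TrpA1 21C, where 30.3% of all genes were called, 2 of 9 were higher, BomS3 at 1.79 (edgeR adjusted p 0.0234) and the Daisho gene Dso2 at 1.79 (edgeR adjusted p 0.0175), and neither was called without replicate 3. In R65H02 GAL4 control 29C against TrpA1 21C, BomS3 was the 1 of 9 called, and was lower (log2 -2.17, edgeR adjusted p 0.0343). There 48.3% of all genes were called.

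After 3 h of shaking 6 of 14 effectors tested were higher, after 6 h 3 and after 12 h 2, with 0 lower, where 23.6%, 46.1% and 16.3% of all genes were called at these times. Here too, and in R21H11 below, scarce effectors can have passed the filter through the groups in which they were high. Dso2 passed at each duration, with 8, 35 and 48 counts after 3 h, 15, 8 and 0 after 6 h and 8, 15 and 20 after 12 h, against 0, 1 and 3 at undisturbed ZT0 (edgeR adjusted p 0.00581, 0.0458 and 0.0313). The fat body marker sum was 339, 2106 and 1574 CPM after 3 h, 503, 318 and 271 CPM after 6 h and 344, 379 and 1022 CPM after 12 h, against 399, 397 and 944 CPM at undisturbed ZT0, and its part was not tested. Dso2 also passed without the libraries that stood apart (0.0221, 0.0342 and 0.0408), whereas 5 of the 6 calls at 3 h did not, including BomS2 (0.118) and BomBc2 (0.0553). R21H11 TrpA1 29C against GAL4 control 29C had 4 of 9 effectors higher, where 47.2% of all genes were called, among them BomS2 at log2 4.37 (SE 0.962, edgeR adjusted p 0.00530). Against TrpA1 21C 0 of 9 were called, with 3.03% of all genes. In R21H11 GAL4 control 29C against TrpA1 21C, BomS2 was the 1 of 9 called, and was lower (log2 -3.60, edgeR adjusted p 0.0361). There 16.5% of all genes were called. In R60F09, 4 of 11 were lower and 0 higher in GAL4 control 29C against TrpA1 21C, with 48.9% of all genes called. For R60F09 TrpA1 29C against TrpA1 21C, 2 were lower and 1 higher, with 44.7% called.

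Of the Imd pathway, 15 of 15 listed genes were matched and 13 tested in R65H02. In TrpA1 29C against GAL4 control 29C, 4 were higher and 2 lower, a smaller share than the 53.8% of all genes called there. Pirk, a negative regulator of Imd signalling that is itself induced by it, had 75, 69 and 47 counts of pirk in TrpA1 29C, against 9, 6 and 8 in GAL4 control 29C and 9, 18 and 27 in TrpA1 21C. It passed against both, at log2 2.58 (SE 0.403, edgeR adjusted p 0.000142) and 1.67 (SE 0.359, edgeR adjusted p 0.00377), and also without replicate 3 (0.000786 and 0.0135). The receptor gene PGRP-LC had 104, 125 and 110 counts in TrpA1 29C, against 57, 37 and 33 in GAL4 control 29C and 80, 62 and 53 in TrpA1 21C. It passed at log2 1.01 (SE 0.194, edgeR adjusted p 0.000714) and 0.69 (SE 0.186, edgeR adjusted p 0.0131), and without replicate 3 at 0.00479 but not at 0.0551 against TrpA1 21C.

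Of the Toll pathway, 15 of 15 listed genes were matched. In R65H02 TrpA1 29C against GAL4 control 29C, 5 of 14 tested were higher and 2 lower, a share close to the 53.8% of all genes called, among them the protease gene modSP at log2 3.00 (SE 0.412, edgeR adjusted p 5.38e-05). Dif, a transcription factor of the Toll pathway, was higher in TrpA1 29C against TrpA1 21C in R60F09, HC and R65H02. In these comparisons 44.7%, 33.5% and 30.3% of all genes were called, Drs among them. The log2 difference of Dif was 0.81 in R60F09 (SE 0.133, edgeR adjusted p 0.000745), 0.58 in HC (SE 0.109, edgeR adjusted p 0.00244) and 0.35 in R65H02 (SE 0.0944, edgeR adjusted p 0.0133), the last named after its value was seen. In GAL4 control 29C against TrpA1 21C it was 0.82 in R60F09 (SE 0.134, edgeR adjusted p 0.00056), 0.45 in HC (SE 0.110, edgeR adjusted p 0.00919) and 0.54 in R21H11 (SE 0.135, edgeR adjusted p 0.0267). There 48.9%, 33.4% and 16.5% of all genes were called, and Drs was called in R60F09 and HC but not in R21H11. The R65H02 value of Dif in this comparison is not given here. After 6 h of shaking Dif was lower (log2 -0.35, SE 0.0821, edgeR adjusted p 0.00255), where 46.1% of all genes were called and Drs was not. A link between Dif and Drs was not tested.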

How the data were processed

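Per the labels' protocols, RNA from pools of 15 brains was isolated with a PicoPure kit and made into libraries with a NEBNext Ultra II kit. The authors deposited estimated counts (expected counts) and TPM per gene. Per the submitters' processing notes, kallisto 0.46.1 was used; its settings, annotation and genome build are not given in the sources used here, so no coordinates are printed. RefSeq names (assembly Release 6 plus ISO1 MT) served for synonyms and gene neighbours. All columns were mapped to samples.

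Estimated counts were rounded (89.0% lay within 0.02 of a whole number), filtered with filterByExpr, scaled with TMM and tested in edgeR 4.0.16 under R 4.3.3 on all genes, with Benjamini-Hochberg adjustment. Shaken groups were fitted with undisturbed ZT0, undisturbed groups together, each line alone, and the wake-promoting lines together for the differences between them. CPM are TMM-scaled; log2 CPM for correlations used a prior count of 2. The scripts were tested on simulated data. No replicates were duplicates (smallest chi-square per gene 2.72).

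The members, gene lists and tests were chosen with earlier results of these data known. All 10 members are named; of each other list, up to 3 called genes with the largest absolute log2 change per comparison could be named. Alternatives were DESeq2 1.42.0, RLE scaling, limma 3.58.1 on log2 TPM (pseudocount 1), no filter, blocking on the replicate number, a lowess length offset (span 0.3), all 72 libraries in 1 fit, a 24 h cosine, no ZT20, log2 TPM for correlations and leaving out each library; leaving out the 7 libraries that stood apart and the comparisons between controls were chosen later, with the data in view. The listed effector IBIN was not analysed here.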

Additional observations from a re-analysis of the deposited data

Results flagged for a closer look

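The change of AttC in TrpA1 29C differed among the 4 wake-promoting lines in a test of that difference, with edgeR adjusted p of 0.0231 against GAL4 control 29C and 0.00104 against TrpA1 21C. AttC had 16, 13 and 97 counts in R65H02 TrpA1 29C, against 0, 0 and 0 in R65H02 GAL4 control 29C, while R60F09 had 1, 1 and 4 counts in TrpA1 29C, against 18, 9 and 8 in TrpA1 21C. AttC passed the count filter through few libraries, mainly these of R65H02 TrpA1 29C and R60F09 TrpA1 21C. Against GAL4 control 29C the adjusted p was 0.0658 without R65H02 TrpA1 29C replicate 3, 0.0994 and 0.252 without all libraries of replicate number 1 or 2, and 0.206 in the fit of all 72 libraries. Against TrpA1 21C it was 0.0607 without replicate number 1.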

How the results depend on the processing

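Directions of called values did not reverse under any alternative run. Counts of members called stayed within 1.5 times under DESeq2, RLE scaling, the 24 h cosine and the replicate block, although across zeitgeber times DESeq2 called AttC in place of Mtk. The replicate block lowered the count across all 24 groups to 7. No comparison had every same-numbered correlation above 0.1, so the replicate numbers were not treated as pairs; at undisturbed zeitgeber times same-numbered libraries correlated at 0.367 on average (0.0531 to 0.589), against -0.182 for different numbers. The share of all genes called is not given for the alternative runs, so their counts of members are a description. With all 72 libraries in 1 fit, 8 members were tested. The main fits tested 1 in R21H11, 3 in R65H02, 5 across zeitgeber times and 3 between wake-promoting lines. Of the 8, 1 was called in R21H11 for GAL4 control 29C and for TrpA1 29C against TrpA1 21C, and 0 in R65H02 for GAL4 control 29C against TrpA1 21C. In R65H02 TrpA1 29C against GAL4 control 29C 1 was called, with 4 across zeitgeber times and 0 between wake-promoting lines against GAL4 control 29C. The length offset gave 1 in R21H11 GAL4 control 29C against TrpA1 21C, 1 in R65H02 TrpA1 29C against each control and 0 across zeitgeber times. With the length offset and the replicate block there was 1 in the R21H11 comparison of GAL4 control 29C with TrpA1 21C, 1 in R65H02 TrpA1 29C against GAL4 control 29C, 0 across zeitgeber times and 0 between wake-promoting lines against GAL4 control 29C. limma on log2 TPM gave 1 in those same R21H11 and R65H02 comparisons. Without the low-count filter, with all 10 members tested, the counts were 1 in R21H11 TrpA1 29C against GAL4 control 29C, 2 in R60F09 for both warm groups against TrpA1 21C and 1 in R65H02 TrpA1 29C against TrpA1 21C. Without libraries that stood apart they were 1 in R65H02 TrpA1 29C against GAL4 control 29C, 5 across all 24 groups, 0 across zeitgeber times, 0 between wake-promoting lines against GAL4 control 29C and 0 of 45 correlated pairs. Without ZT20, 0 members were called across zeitgeber times.

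Leaving out 1 library at a time gave 0 to 1 members in HC for each warm group against TrpA1 21C, 0 to 1 in R21H11 and in R65H02 for GAL4 control 29C against TrpA1 21C, 1 to 2 in R60F09 TrpA1 29C against TrpA1 21C, 1 to 2 in R65H02 TrpA1 29C against each control and 0 to 2 across zeitgeber times. Leaving out all libraries of 1 replicate number at a time gave 0 to 1 members for each test between wake-promoting lines and 0 to 4 correlated pairs. Leaving out a library can also change the number of members tested. Across zeitgeber times it was 8 without ZT0 replicate 1, against 5 in the main fit. The causes were not tested. At a floor of 3 counts, 8 of the 10 genes lie near the limit of detection in most libraries.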
